A study of Homo sapiens with 5 samples.

Results

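Lineage miRNAs are mature miRNAs that are abundant in one cell lineage and scarce in others. The 10 described here were taken by exact probe name from a panel of 734 miRNA probes, of which 654 are human. They are hsa-miR-142-3p, hsa-miR-142-5p and hsa-miR-223 of blood cells, hsa-miR-126, hsa-miR-145 and hsa-miR-214 of endothelium and stroma, hsa-miR-206 and hsa-miR-208a of muscle, and hsa-miR-9 and hsa-miR-128 of neurons, named from here on without the species prefix. RNA came from Caco2, a human colorectal adenocarcinoma line of epithelial character, so the lanes show what these probes read in a culture of 1 epithelial cell line. The cells carried either an shRNA targeting PLEKHA7, which is known as an adherens junction protein (shPLEKHA7, n = 3, replicates 1, 2 and 3), or a non-target shRNA (NT, n = 2, replicates 1 and 3). Both groups had been through infection and selection, and the RNA of the series is described as coming from independent sets of infections. As PLEKHA7 itself has no probe on it, the depletion was not analysed here. The miRNAs were counted on the NanoString nCounter, which counts fluorescent barcodes bound to each target without amplification.

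A miRNA is cut from a hairpin transcript, either arm of which can give a mature strand, and it pairs with messenger RNAs mainly through its seed, bases 2 to 8. Its transcript is usually under the control of lineage promoters or of a host gene, which is why such miRNAs serve as markers of cell type. Epithelial and intestinal cells are known instead for the miR-200 family, miR-192, miR-194 and miR-215.

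All 10 panel targets equalled a RefSeq mature sequence (GRCh38.p14). Printed below are the members that were above background in every lane, with the second arm of miR-142 and the muscle miRNA miR-1 for comparison, 5′ to 3′ with the seed in capitals.
miR-206: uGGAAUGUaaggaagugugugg
miR-1: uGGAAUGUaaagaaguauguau
miR-142-5p: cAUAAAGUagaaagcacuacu
miR-142-3p: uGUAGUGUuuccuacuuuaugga
miR-223: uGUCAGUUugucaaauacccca
miR-126: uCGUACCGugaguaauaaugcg
miR-214: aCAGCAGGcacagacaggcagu
miR-9: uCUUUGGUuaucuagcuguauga
No 2 of the 10 share a seed. miR-206 shares its seed with miR-1, from which it differs at 4 of 22 positions, and with miR-613 on the same panel. miR-208a shares its seed with miR-208b, and miR-214 with miR-761.

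The loci of the 10, all given on GRCh38.p14, mostly lie within other transcripts. Both arms of MIR142 are on the minus strand of chromosome 17 within MIR142HG, miR-142-3p at chr17:58331245-58331267 and miR-142-5p at chr17:58331283-58331303. MIR223 (chrX:66018937-66018958, plus strand) lies within MIR223HG. MIR126 (chr9:136670653-136670674, plus strand) lies within EGFL7, a gene of endothelium. MIR145 (chr5:149430661-149430683, plus strand) lies within CARMN, a long noncoding RNA gene of smooth muscle, and MIR214 (chr1:172138816-172138837, minus strand) lies within DNM3OS. MIR206 is at chr6:52144401-52144422 on the plus strand, with no other gene over it in the RefSeq table. MIR208A (chr14:23388602-23388623, minus strand) lies within MYH6, a cardiac myosin gene. miR-9 comes from 3 loci, MIR9-1 to MIR9-3, at chr1:156420392-156420414, chr5:88666902-88666924 and chr15:89368032-89368054. miR-128 comes from 2, in R3HDM1 (chr2:135665446-135665466) and ARPP21 (chr3:35744527-35744547).

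Total miRNA counts ran from 32138 to 58298 in the shPLEKHA7 lanes and were 34942 and 50372 in the NT lanes. The limit of detection, the mean plus 2 SD of the 8 negative-control probes of the same lane, was 24.5, 11.0 and 20.2 counts in shPLEKHA7 replicates 1, 2 and 3, and 13.4 and 20.6 counts in NT replicates 1 and 3. Together the 10 lineage miRNAs took 0.643% to 0.792% of the miRNA count in shPLEKHA7 lanes, against 0.635% and 0.787% in NT lanes. The 95% exact binomial intervals of these shares, which cover counting error only, ran from 0.58% to 0.876% in shPLEKHA7 lanes and from 0.568% to 0.885% in NT lanes. Part of that signal was background, since 10 probes at the mean of the negative controls would sum to 45 to 111 counts in shPLEKHA7 lanes, where the lineage miRNAs summed to 227 to 380. In NT lanes the same sum was 61.3 and 75 counts, against 275 and 320 for the lineage miRNAs. In bulk RNA of 1 cell line, whether a count came from few of the cells or from all of them cannot be told apart.

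Of the 10 lineage miRNAs, 6 were above the limit in all 5 lanes (miR-206, miR-223, miR-126, miR-142-5p, miR-9 and miR-214), against 18.5% of human probes, and all 10 were above it in at least 2 lanes, against 28.9% of human probes. These 10 were named with earlier results of these data known, so their detection rate says nothing about such miRNAs in general. A stricter limit of the mean plus 3 SD left 3 of them (miR-206, miR-223 and miR-126) above background in every lane, and a limit of the mean plus 2 SD of the 80 viral miRNA probes left 1, miR-206. The viral probes give a second view of background, and 6 of the 80 (7.5%) were themselves above the negative-control limit in all 5 lanes. By the median over lanes of the ratio of count to limit, the order was miR-206 (3.72), miR-223 (2.31), miR-126 (2.29), miR-142-5p (1.72), miR-9 (1.64), miR-142-3p (1.27), miR-214 (1.21), miR-128 (1.18), miR-145 (1.02) and miR-208a (1.0). The lane ranges of all neighbours in this order overlapped. Probes differ in capture efficiency, so counts of different probes are set here against the lane limit and not read as numbers of molecules.

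**Figure D1:**
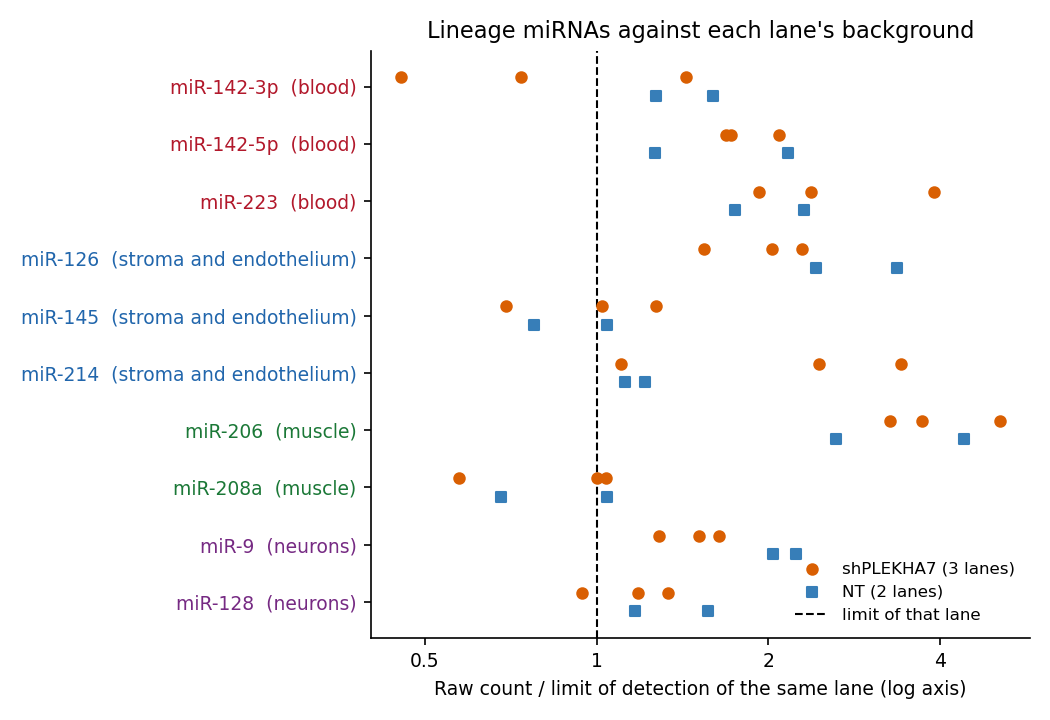
Raw count divided by the limit of detection of the same lane (log axis) for each lineage miRNA, with shPLEKHA7 lanes as circles above and NT lanes as squares below. miR-206 sits at 2.62 to 5.09 times the limit in all lanes, while miR-145 and miR-208a straddle it in both groups.

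miR-206, a miRNA of skeletal muscle, had the highest level against background. It had 91, 56 and 66 raw counts in shPLEKHA7 replicates 1, 2 and 3, against 59 and 54 counts in NT replicates 1 and 3. Its 95% Poisson intervals lay above the limit in all 5 lanes, and 0 to 4 of the 80 viral probes read as high or higher. The groups overlapped after scaling, at 69.9 ± 17.6 TMM-normalized counts in shPLEKHA7 cells and 62.8 ± 17.0 in NT cells (SD, n = 3 and 2). The log2 fold change was 0.16 (95% interval -0.44 to 0.75, edgeR adjusted p = 0.757). With the spike-in controls as scaling, without the filter on low counts, or without shPLEKHA7 replicate 1 or NT replicate 3, it turned negative.

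The other muscle probes read below the limit in most lanes. miR-1, which has the seed of miR-206, read 13, 14 and 12 counts in shPLEKHA7 lanes and 4 and 17 in NT lanes, above the limit in 1 of 5 lanes. miR-133b, whose gene lies 4.49 kb from MIR206 on the same strand, read 14, 10 and 7 counts in shPLEKHA7 lanes and 8 and 13 in NT lanes, above the limit in 0 of 5. miR-208a, a cardiac miRNA, read 14, 11 and 21 counts in shPLEKHA7 lanes against 14 and 14 in NT lanes, from 0.573 to 1.04 times the limit. It passed the limit in 2 of 5 lanes, and its log2 fold change was -0.06 (95% interval -0.90 to 0.78, edgeR adjusted p = 0.967). Its cardiac relative miR-208b passed the limit in 0 of 5 lanes.

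Among the blood miRNAs, miR-223, known for its part in the myeloid lineage, had the highest median against the limit. It had 47, 43 and 48 raw counts in shPLEKHA7 lanes, against 31 and 36 in NT lanes, so its raw counts did not overlap. After TMM scaling they did, at 46.1 ± 11.7 normalized counts in shPLEKHA7 cells and 36.6 ± 3.9 in NT cells (log2 fold change 0.30, 95% interval -0.26 to 0.87, edgeR adjusted p = 0.54). Spike-in scaling put the fold change at -0.04, and with a sample left out it ran from 0.10 without shPLEKHA7 replicate 2 to 0.47 without shPLEKHA7 replicate 3. Its Poisson intervals were above the limit in all 5 lanes, as otherwise held among the 10 only for miR-206.

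miR-142 is a miRNA of leukocytes, and the panel counts both arms of its hairpin. The 5p arm read 42, 23 and 34 counts in shPLEKHA7 lanes against 29 and 26 in NT lanes, and was above the limit in every lane. The 3p arm read 18, 5 and 29 counts in shPLEKHA7 lanes against 17 and 33 in NT lanes, and was above the limit in 1 of 3 shPLEKHA7 lanes and both NT lanes. The ratio of the 5p to the 3p count was 2.333, 4.6 and 1.172 in shPLEKHA7 lanes, against 1.706 and 0.788 in NT lanes. The groups of ratios overlapped. The 3p arm was below the limit in shPLEKHA7 replicates 1 and 2, so those ratios are set against a count that did not pass it. The arms were at log2 fold changes of 0.08 for 5p (95% interval -0.54 to 0.69) and -0.72 for 3p (95% interval -1.59 to 0.16). Neither was called by edgeR (adjusted p = 0.898 for 5p and 0.284 for 3p). The 3p arm was called lower in shPLEKHA7 cells under spike-in scaling (log2 -1.03, adjusted p = 0.0248). For the 3p arm, leaving out NT replicate 3 gave log2 -0.36 and leaving out shPLEKHA7 replicate 3 gave -1.09.

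miR-126, an endothelial miRNA that acts in vessel integrity, had 56, 17 and 41 raw counts in shPLEKHA7 lanes against 45 and 50 in NT lanes. After scaling it stood at 35.1 ± 14.3 normalized counts in shPLEKHA7 cells and 52.0 ± 7.1 in NT cells, and shPLEKHA7 replicate 1 lay within the NT range. The log2 fold change was -0.52 (95% interval -1.19 to 0.14, edgeR adjusted p = 0.298). It ran from -0.89 without shPLEKHA7 replicate 1 to -0.36 without replicate 2. It was called lower under spike-in scaling (log2 -0.86, adjusted p = 0.0235).

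miR-214, a miRNA of mesenchymal cells, had the lowest adjusted p of the 10 under TMM scaling. It had 27, 27 and 69 raw counts in shPLEKHA7 lanes against 15 and 25 in NT lanes, and the groups did not overlap before or after scaling. Normalized counts were 38.0 ± 13.8 in shPLEKHA7 cells and 21.3 ± 3.2 in NT cells, a log2 fold change of 0.84 (95% interval 0.07 to 1.61). Its edgeR p was 0.0358 unadjusted and 0.162 adjusted over 204 probes, so it was not called. Without shPLEKHA7 replicate 1 it was called (log2 1.08, adjusted p = 0.0288), and without shPLEKHA7 replicate 3, the lane with 69 counts, the fold change was 0.48. Under spike-in scaling it was 0.53 (adjusted p = 0.247). The NT counts stood at only 1.12 and 1.21 times the limit of their lanes. miR-199a-5p has 1 of its loci, MIR199A2, 5.63 kb from MIR214 on the same strand. It read 11, 5 and 10 counts in shPLEKHA7 lanes and 6 and 7 in NT lanes, above the limit in 0 of 5.

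miR-145, a miRNA of smooth muscle that is transcribed with miR-143, read 25, 14 and 14 counts in shPLEKHA7 lanes against 14 and 16 in NT lanes. It passed the limit in 2 of 3 shPLEKHA7 and 1 of 2 NT lanes, and its lower Poisson bound did so in none of the 5. Its log2 fold change was 0.07 (95% interval -0.85 to 0.99, edgeR adjusted p = 0.958), with overlapping groups. miR-143, whose gene lies 1.62 kb away, read 12, 9 and 15 counts in shPLEKHA7 lanes and 7 and 6 in NT lanes, below the limit in all 5.

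Both neuronal miRNAs were lower in all shPLEKHA7 lanes than in either NT lane after scaling, as were 22.1% of all tested probes, and neither was called. The other tested neuronal probes, miR-383 and miR-137, lay above 0, but miR-383 was above the limit in shPLEKHA7 lanes only. miR-9, a miRNA of neural progenitors, had 37, 18 and 26 raw counts in shPLEKHA7 lanes against 30 and 42 in NT lanes, so its raw counts overlapped. It stood at 26.0 ± 7.1 normalized counts in shPLEKHA7 cells and 38.8 ± 1.0 in NT cells (log2 fold change -0.58, 95% interval -1.17 to 0.004, edgeR adjusted p = 0.209). It was called lower under spike-in scaling (log2 -0.92, adjusted p = 0.0204). With a sample left out it ran from -0.84 to -0.37, the ends being without shPLEKHA7 replicate 1 and without shPLEKHA7 replicate 3. miR-128, a miRNA of the brain, had 23, 13 and 27 raw counts in shPLEKHA7 lanes against 21 and 24 in NT lanes. It stood at 19.7 ± 1.7 normalized counts in shPLEKHA7 cells and 24.6 ± 2.9 in NT cells (log2 fold change -0.29, 95% interval -0.86 to 0.29, edgeR adjusted p = 0.599). That interval was derived from the F statistic and is narrower than the unadjusted edgeR p of 0.325 implies. The fold change ran from -0.37 without NT replicate 3 to -0.17 without NT replicate 1. miR-128 was above the limit in 4 of 5 lanes, with no lower Poisson bound above it.

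Across the 10, edgeR called 0 higher and 0 lower at an adjusted p under 0.05. Over all 204 tested probes 2.45% were called higher and 3.92% lower, 6.37% in all. At an unadjusted p under 0.05 there was 1 of 10 (miR-214), against 23.5% of tested probes. limma on the deposited values called 0, with 1 of the 10 at an unadjusted p under 0.05. DESeq2 put 0 of the 10 under an unadjusted p of 0.05, and gave 9 of them no adjusted p, so that only miR-206 could have been called by it. Under other edgeR settings the number at an unadjusted p under 0.05 depended on the processing. It was 1 of 10 with total counts (53 of 204 probes) and 4 of 10 without the filter on low counts (83 of 734 probes). Deposited factors and spike-in scaling each gave 3 of 10, beside 37 and 53 of 204 probes. Of the 10, 5 lay above 0 and 5 below, with a median log2 fold change of 0.01 beside a median of 0.06 over all tested probes. After scaling, the groups did not overlap for 3 of the 10, against 48% of tested probes. These were 1 higher miRNA (miR-214) and 2 lower ones (miR-9 and miR-128), against 26% and 22.1% of tested probes. The 95% intervals spanned the value 0 for all but miR-214. The widest, for miR-145, reached from -0.85 to 0.99. Those reaching furthest from 0 ended at -1.59 for miR-142-3p and 1.61 for miR-214. With 3 and 2 lanes, changes up to the end of each miRNA's own interval were not excluded.

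**Figure D2:**
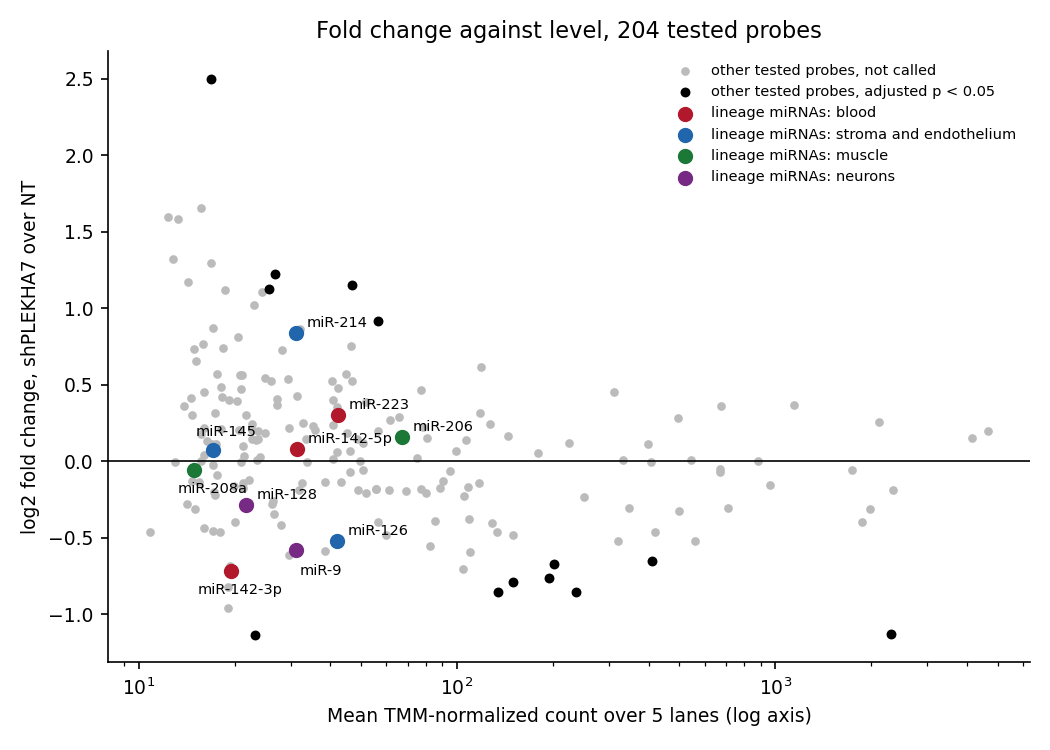
log2 fold change of shPLEKHA7 over NT against the mean TMM-normalized count over 5 lanes (log axis) for the 204 tested probes, with the lineage miRNAs coloured by lineage. The lineage miRNAs lie at 14.9 to 67.1 normalized counts, on both sides of 0, and none of them is among the 13 called probes drawn in black.

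More lineage miRNAs were called under spike-in scaling than under any other setting tried. The positive-control spike-ins are synthetic targets of known input. They totalled 12975 ± 2000 counts in shPLEKHA7 lanes and 9171 ± 2100 in NT lanes (SD, n = 3 and 2). The groups did not overlap, but the lowest shPLEKHA7 and the highest NT total differed by only 14 counts. An exact permutation test gave a 2-sided p of 0.2. Scaling to the spike-ins moved the median of all tested probes to log2 -0.27 and that of the lineage miRNAs to -0.32. Of the 10, 3 were then called lower (miR-126, miR-142-3p and miR-9). Relative to the median of all tested probes, the lineage median lay at -0.05 under both spike-in and TMM scaling. Per 1000 spike-in counts the 10 together had 27.1, 21.3 and 26.3 counts in shPLEKHA7 lanes, against 35.8 and 30.0 in NT lanes. What made the spike-in counts differ was not tested.

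**Figure D3:**
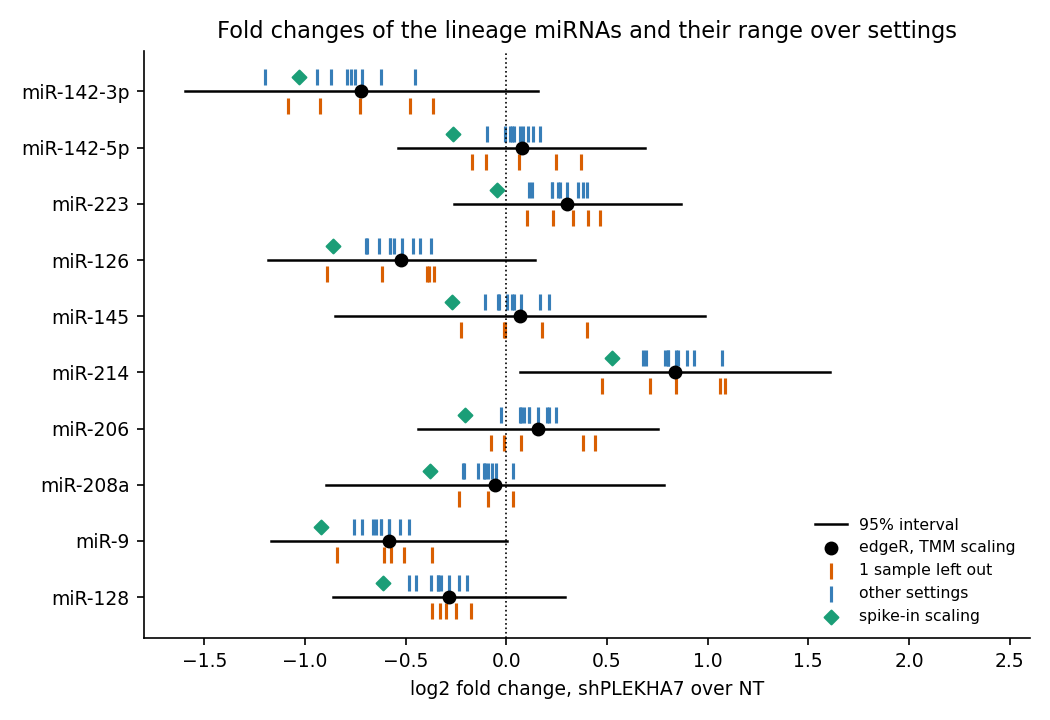
log2 fold change of shPLEKHA7 over NT for each lineage miRNA: black points with 95% intervals are the edgeR fit with TMM scaling, ticks above are other settings, diamonds are spike-in scaling, and ticks below are fits with 1 sample left out. miR-214 stays above 0 and miR-142-3p, miR-126, miR-9 and miR-128 stay below 0 in all settings drawn, while miR-142-5p, miR-223, miR-145, miR-206 and miR-208a each cross 0 in at least 1.

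Most other miRNAs of the same lineages were below the limit. Of 30 further probes for blood, stroma and endothelium, muscle and neurons, 21 were above the limit in none of the 5 lanes, as were 59.5% of all human probes, and 1, miR-181a, in all 5, against 18.5% of human probes. By contrast 7 of 8 probes for epithelium and intestine were above it in all lanes, led by miR-200c with 692 to 1165 counts in shPLEKHA7 lanes and 806 and 1087 in NT lanes. miR-192 read 263 to 684 counts in shPLEKHA7 lanes and 338 and 414 in NT lanes, and miR-200b 201 to 411 counts in shPLEKHA7 lanes and 323 and 403 in NT lanes. The median ratio of count to limit was 7.24 over the epithelial probes, 1.45 over the 10 lineage miRNAs and 0.45 over the viral probes. The summed epithelial probes made up 4.44% to 4.95% of the miRNA count in shPLEKHA7 lanes, against 5% and 4.70% in NT lanes.

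**Figure D4:**
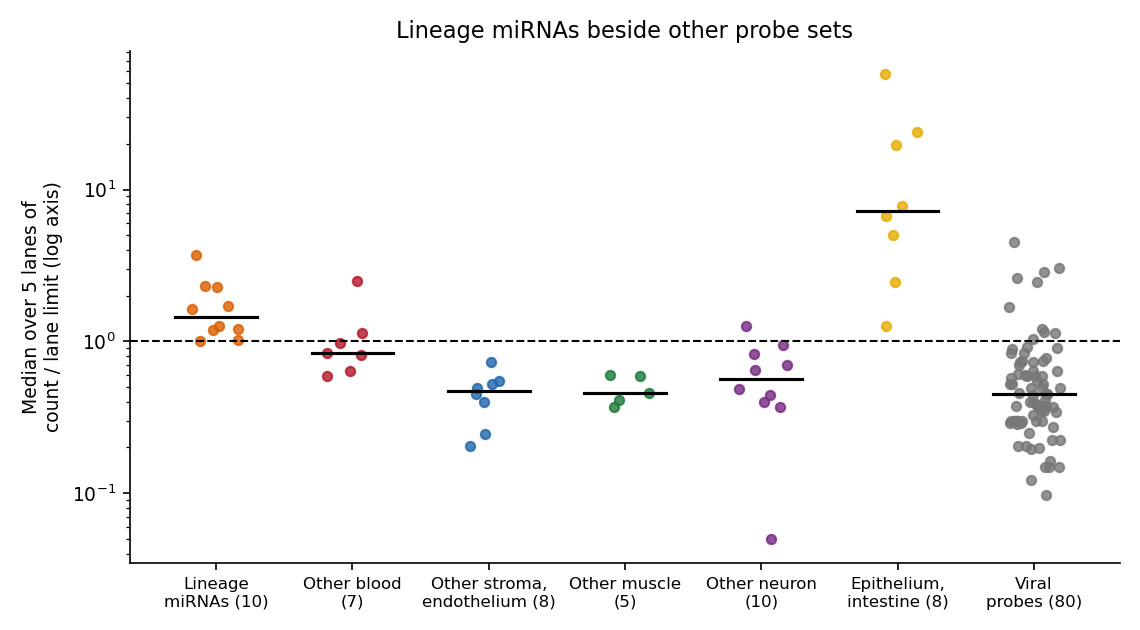
Median over 5 lanes of the raw count divided by the lane limit (log axis), 1 point per probe and a bar at the median of each set, with the number of probes in brackets. The 10 lineage miRNAs, which were chosen with earlier results of these data known, lie between 1.0 and 3.72. Of them 9 lie above 1.0, against 3 of 30 other probes of their lineages. All 10 are within the range of the viral probes, whose highest is 4.50, while epithelial probes reach 57.6.

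In the blood list 4 of 7 probes were tested and 0 called. miR-181a, a miRNA of lymphocyte development that many tissues also express, read 61, 42 and 47 counts in shPLEKHA7 lanes against 44 and 45 in NT lanes (log2 fold change 0.003, SE 0.26). miR-155, induced in activated lymphocytes, was at log2 -0.005 (SE 0.29). In the stroma list 0 of 8 and in the muscle list 0 of 5 probes were tested. By mean normalized count the stroma list was led by miR-10b, above the limit in 1 of 5 lanes. It read 18, 5 and 14 counts in shPLEKHA7 lanes and 16 and 15 in NT lanes. The joint probe for miR-199a-3p and miR-199b-3p was below the limit in all 5 lanes. In the neuron list 2 of 10 were tested and 0 called. miR-383 read 31, 17 and 30 counts in shPLEKHA7 lanes against 12 and 14 in NT lanes (log2 fold change 0.81, SE 0.29, edgeR adjusted p = 0.12). Both of its NT counts were below the limit, so it was tested through its shPLEKHA7 lanes alone. miR-137 was at log2 0.06 (SE 0.42). In the epithelial list 1 of 8 was called, miR-215, which was higher in shPLEKHA7 cells (log2 fold change 1.22, SE 0.31, edgeR adjusted p = 0.048), and the median was log2 -0.07. miR-215 read 31, 22 and 60 counts in shPLEKHA7 lanes against 11 and 17 in NT lanes. Both NT counts were below the limit, so miR-215 passed the filter only through the group where it was high. Over all tested probes 6.37% were called, so none of these counts sets a list apart.

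The likeness of lane patterns was measured as the Euclidean distance between centred log2 normalized counts over 5 lanes, against each of 203 other tested probes. The nearest probe was miR-518f for miR-142-5p (distance 0.17, against a median distance of 0.84), miR-146a for miR-223 (0.22, median 0.83), miR-28-5p for miR-126 (0.38, median 1.25), miR-32 for miR-214 (0.29, median 1.30), miR-181a for miR-206 (0.23, median 0.92) and miR-548a-3p for miR-9 (0.19, median 1.02). The second nearest were miR-206 for miR-142-5p, miR-140-5p for miR-223, miR-200a for miR-126, miR-455-3p for miR-214, miR-137 for miR-206 and miR-1308 for miR-9. The smallest of 203 distances lies below their median for any probe, so that gap is no measure of likeness. All pairs share lanes, so such distances describe these 5 samples only.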

How the data were processed

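The authors deposited raw counts per probe and lane, and a second table of normalized signal whose software was not given in the sources used here. In that deposited signal, 100% of human miRNA values equalled, to within 0.02, the raw count multiplied by a factor of its lane. Viral values were unscaled. The geometric mean of the housekeeping control probes was 1802.2 in every lane of that signal. Groups followed the sample titles; the source field of 2 shPLEKHA7 samples carries another PLEKHA number. Probes above the limit in at least 2 lanes (204 of 734) were tested, of which 189 were human and the rest viral. The test was the quasi-likelihood test of edgeR 4.0.16 (R 4.3.3), under TMM scaling and with no covariate beside group. Benjamini-Hochberg adjustment was over all tested probes. The SE was derived from F as the size of the log2 fold change divided by the root of F. DESeq2 1.42.0 and limma 3.58.1 (pseudocount of 1) were alternatives, with other scalings, filters, limits, background subtraction, a replicate block and leaving out each sample. The edgeR script was tested on simulated data. The members and lists were chosen with earlier results of these data known. Named were the 10 members, the highest of each list and the nearest probes by lane pattern, and probes sharing a seed or locus were added after values were seen. The lane numbers in the deposited column names place both NT samples first, so position in the run and group cannot be told apart. Sequences and loci are RefSeq's (GRCh38.p14).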

Additional observations from a re-analysis of the deposited data

Results flagged for a closer look

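The positive-control spike-ins, which enter no comparison of the lineage miRNAs with TMM scaling, were counted 1.41 times as often in shPLEKHA7 as in NT lanes. Totals were 14017, 10670 and 14239 counts in shPLEKHA7 replicates 1, 2 and 3, against 7686 and 10656 in NT replicates 1 and 3 (exact permutation test, 2-sided, p = 0.2, where these group sizes allow no p below 0.1). The lowest shPLEKHA7 total and the highest NT total differ by 14 counts.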

How the results depend on the processing

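Near-background counts and 2 NT lanes limit every fold change here. The number of lineage miRNAs called moved from 0 to 3 under spike-in scaling, and with a sample left out it ran from 0 to 1. Spike-in scaling also gave a lineage median of log2 -0.32 and 29 probes called lower. Probes called higher over the panel, 5 with TMM scaling, were 12 with total counts, 2 by DESeq2, 1 without the filter and 2 among probes above the limit in all samples. Probes called lower, 8 with TMM scaling, were 2 under the deposited factors and 2 by limma. With a sample left out these counts ran from 0 to 9 and from 0 to 11, and without NT replicate 1 or 3 they were 0 higher with 1 and 0 lower. The lineage median ran from log2 -0.20 (without NT replicate 3) to 0.25 (without shPLEKHA7 replicate 3). The number above the limit in all lanes, 6, was 3 with the mean plus 3 SD and 1 with the viral limit, and 6 to 7 with a sample left out.

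Of 106 fold changes of single lineage miRNAs under other settings 11 turned sign, as did 8 of 48 with a sample left out. Under spike-in scaling miR-142-5p was at log2 -0.26, miR-223 at -0.044, miR-145 at -0.27 and miR-206 at -0.20. Without the filter miR-142-5p was at -0.095, miR-145 at -0.11 and miR-206 at -0.0275. By limma miR-142-5p was at -0.0069 and miR-145 at -0.042. Total counts put miR-208a at 0.034. With a sample left out miR-142-5p ran from -0.17 to 0.37, miR-145 from -0.23 to 0.40, miR-206 from -0.075 to 0.44 and miR-208a from -0.23 to 0.034. The cause of these moves was not tested.

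The replicate block called 1 lineage miRNA, miR-214 (log2 0.85, adjusted p = 0.0461), put miR-145 at -0.036 and called 10 probes higher. The labels do not say that a shared number marks a pair. Deviations from the group means correlated at 0.02 between the samples numbered 1 and at 0.15 between those numbered 3. NT replicate 1 and shPLEKHA7 replicate 2, which do not share a number, correlated at 0.14. With 2 NT lanes the NT deviations mirror each other, so these correlations cannot decide whether the numbers mark pairs.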
